A study of Mus musculus with 12 samples.

Results

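The 9 transcription factors of the macrophage lineage described here were Spi1 (encoding PU.1), Cebpa, Cebpb, Maf, Zeb2, Klf2, Klf4, Mitf and Tfec, and they were read by gene symbol from RNA sequencing of mouse bone marrow-derived macrophages. All 9 were found among the 38739 symbols of the expression table, and all 9 passed the filter on low values. The 12 samples formed 4 groups of 3, namely WT and cGAS-/- macrophages left untreated in medium (UT) and WT and cGAS-/- macrophages given Escherichia coli 026:B6 lipopolysaccharide (LPS), the outer membrane component that Toll-like receptor 4 senses. cGAS is the cytosolic DNA sensor cyclic GMP-AMP synthase, and the cGAS-/- mice carried a whole-body deletion on the C57BL/6J background. The methods name male mice of 8 weeks and 24 h of LPS, whereas the sample labels give 1 h with 100 ng/mL and the methods another dose, so the length and the dose of stimulation are uncertain. The 3 samples of a group are called technical replicates in the study, so every p-value below measures the spread between samples and not between mice. An extraction step in the labels names neutrophils. The 8 macrophage markers in the table, of 14 looked for, summed to between 16817 and 34190 TPM (transcript abundance corrected for transcript length and for the size of the library). Most of that sum was Lyz2, a lysozyme gene that neutrophils also express, and the other 7 markers summed to between 426 and 1566 TPM. The neutrophil granule genes Elane, Mpo and Prtn3 and the receptor gene Cxcr2 stayed under 1 TPM in every sample, whereas the granule gene Ngp lay between 24.1 and 32.3 TPM in WT UT and the calgranulin genes S100a8 and S100a9 reached 165 and 181 TPM in WT LPS. All 9 neutrophil markers together lay between 35.9 and 353 TPM. Fewer cells of a type and less RNA per cell cannot be told apart in these bulk samples.

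Macrophages acquire their identity through a small set of DNA-binding proteins. PU.1, an ETS-family protein, opens macrophage enhancers and is needed for the whole myeloid branch. C/EBPα drives the step from progenitor to granulocyte and monocyte, and C/EBPβ is the relative that is induced by inflammatory signals and binds the promoters of cytokine and acute-phase genes. MAF helps to hold mature macrophages out of the cell cycle and to maintain genes of resident macrophages. ZEB2 represses genes of other lineages and preserves the identity of tissue macrophages. KLF2 and KLF4 are zinc-finger proteins of the Krüppel-like family known to restrain or shape inflammatory activation. MITF and TFEC belong to the MiT/TFE group, whose members bind promoters of lysosomal and osteoclast genes.

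One library stood apart and touches every result on LPS-treated WT cells. In WT LPS replicate 3 the values summed to 709802 TPM, against 447189 to 503156 TPM in the other samples. The ferritin pseudogene Fth-ps3 took 31.7% of that sum and protein-coding genes 18.5%. Among the 9 factors, 7 had their lowest WT LPS value in this sample, Zeb2 had its highest there and Mitf lay between the other samples. Cebpa in it was 12.6-fold below the mean of the other WT LPS samples and Klf4 18.9-fold below. The LPS results of the factors in WT and the counts of linked genes are therefore given with and without this sample. Cgas, the deleted gene, lay between 1.19 and 3.25 TPM in WT samples and between 0.0703 and 0.291 TPM in cGAS-/- samples, so all 12 samples carried the Cgas level of their label.

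The factor genes lie on 5 chromosomes of the mouse genome (GRCm39). Spi1 (90912562 to 90946101, plus strand), Zeb2 (44873644 to 45007464, minus strand) and Cebpb (167530835 to 167532338, plus strand) are on chromosome 2. Maf (116409632 to 116434579, minus strand) and Klf2 (73072726 to 73075502, plus strand) are on chromosome 8. Mitf (97783950 to 97998323, plus strand) and Tfec (16833372 to 16898440, minus strand) are on chromosome 6. Klf4 (55527139 to 55532528, minus strand) is on chromosome 4 and Cebpa (34818718 to 34821353, plus strand) on chromosome 7. Peds1 overlaps Cebpb on the opposite strand over 312 exon bases, 20.7% of the exon bases of Cebpb, and was not analysed here. Gm15655 overlaps Maf in the same way over 4.7% of its exon bases and Zeb2os overlaps Zeb2 over 3.8%. Klf2 lies inside Eps15l1 on the opposite strand with no exon base in common. The library kit keeps the strand, but use of the strand in counting is not stated, so reads of these antisense pairs may have been shared.

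The start regions of Cebpa and Cebpb are shown because these were the pair of factors that passed the test with LPS, in opposite directions. RefSeq start sites on GRCm38.p6 gave a sequence for 7 of the 9 factors, and the 250 bases before the start of both genes were found once each in GRCm39, at chr7:34818468-34818717 (plus strand) for Cebpa and at chr2:167530585-167530834 (plus strand) for Cebpb. Capitals mark TATAAA, the TATA box that positions transcription (read on the sense strand only), TGACG, the half-site bound by CREB-type factors, and TTGCNNAA, a form of the C/EBP site (both strands, where N is any base). Other forms of the C/EBP site were not searched.
Cebpa: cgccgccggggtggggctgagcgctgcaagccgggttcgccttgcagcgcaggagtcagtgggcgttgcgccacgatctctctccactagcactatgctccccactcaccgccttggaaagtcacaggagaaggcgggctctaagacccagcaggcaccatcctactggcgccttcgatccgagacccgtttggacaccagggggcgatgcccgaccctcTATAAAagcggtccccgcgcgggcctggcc
Cebpb: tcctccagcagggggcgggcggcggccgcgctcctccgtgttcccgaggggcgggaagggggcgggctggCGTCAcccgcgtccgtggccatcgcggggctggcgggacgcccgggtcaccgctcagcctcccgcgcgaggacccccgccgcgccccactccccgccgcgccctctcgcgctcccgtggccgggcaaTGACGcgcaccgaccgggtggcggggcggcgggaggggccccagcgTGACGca
Cebpa carried the TATA letters once, 30 bases before the start, and neither of the other patterns. Cebpb carried no TATAAA and held TGACG 3 times, at 180, 53 and 7 bases before the start, the farthest on the opposite strand. Of 32851 promoters of the same length, 7.59% held TATAAA, 17.8% held TGACG and 9.56% held TTGCNNAA. The GC box GGGCGG (both strands) occurred 5 times in Cebpb and not in Cebpa, and 32.7% of all promoters held it. These matches describe letters in a window and no binding was measured.

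Levels of the factors differed widely. By the deposited averages, Cebpb, Spi1, Maf and Cebpa were the 4 highest in untreated cells of both genotypes, and Tfec was the lowest in every group. In WT UT the means were 140 TPM for Cebpb, 133 for Spi1, 80.5 for Maf and 77.7 for Cebpa, followed by Klf2 at 17.0, Mitf at 6.39, Zeb2 at 6.09, Klf4 at 3.54 and Tfec at 1.75. Samples of Cebpb overlapped those of Spi1 in this group, those of Maf overlapped those of Cebpa, and those of Mitf overlapped those of Zeb2, so these neighbours in the order did not differ beyond their spread. In cGAS-/- UT no neighbours overlapped and Cebpa (87.4 TPM) stood above Maf (73.7 TPM). With LPS, Cebpb took 65.3% of the summed TPM of the 9 factors in WT and 66.6% in cGAS-/- cells, against 30.1% and 35.6% in untreated cells. The share of Cebpa was 16.7% in WT UT and 17.3% in cGAS-/- UT, and 0.827% and 1.04% with LPS. Values are averages over the transcripts of a gene, so a gene with many transcripts is placed too low. Multiplied by the number of transcripts inferred from the decimals, Spi1 (4 transcripts) was first in every group, with 533 TPM in WT UT, and Mitf (8 transcripts) moved from place 6 to place 5 there.

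**Figure D1:**
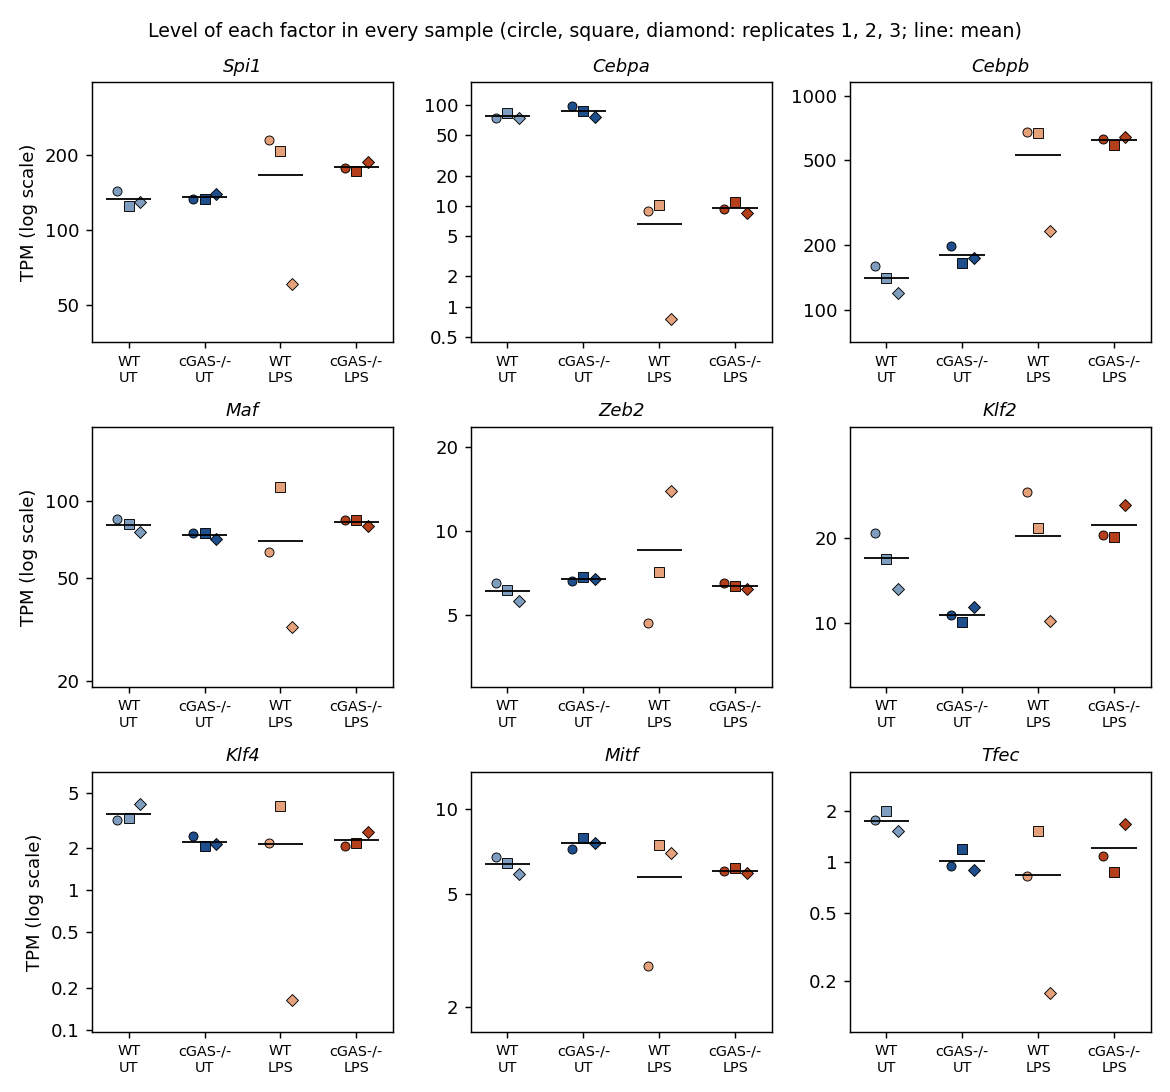
Level of each of the 9 factors in TPM (log scale, own range per panel) in every sample of the 4 groups; circles, squares and diamonds are replicates 1, 2 and 3 and the line is the mean. Cebpa falls from between 74.7 and 98.8 in untreated cells to between 0.763 and 11 with LPS, Cebpb goes from between 120 and 199 to between 234 and 678, and the diamond of WT LPS stands apart in most panels.

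LPS moved the C/EBP pair in opposite directions in both genotypes, and these were the only factors of the 9 that passed the test over all 12 samples (limma on log2 of TPM + 1, Benjamini-Hochberg adjusted p under 0.05 over 11887 genes). Cebpa stood at 74.9, 83.3 and 74.7 TPM in WT UT and at 8.93, 10.3 and 0.763 TPM in WT LPS. In cGAS-/- cells its values were 98.8, 87.0 and 76.4 TPM untreated and 9.33, 11 and 8.52 TPM with LPS. Every LPS sample was below every UT sample. The log2 fold change was -3.75 (SE 0.56, adjusted p = 7.89e-04) in WT and -3.06 (SE 0.56, adjusted p = 0.00352) in cGAS-/- cells. Without WT LPS replicate 3 the WT value was -2.89 (SE 0.14, adjusted p = 5.47e-07). Cebpa also passed the second criterion of the study, a log2 fold change below -2, which 2.89% of all genes met in WT and 1.56% in cGAS-/- cells.

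Cebpb ran the other way. It stood at 159, 141 and 120 TPM in WT UT and at 678, 669 and 234 TPM in WT LPS. In cGAS-/- cells it went from 199, 165 and 174 TPM to 628, 585 and 640 TPM. No LPS sample overlapped a UT sample of its genotype. The log2 fold change was 1.76 (SE 0.36, adjusted p = 0.0053) in WT and 1.78 (SE 0.36, adjusted p = 0.00662) in cGAS-/- cells, and without WT LPS replicate 3 it was 2.27 (SE 0.13, adjusted p = 1.17e-06) in WT. Fitted on the 6 WT samples alone, Cebpb missed the threshold in WT (log2 fold change 1.76, adjusted p = 0.0913). The LPS effects on both genes were not shown to differ between genotypes, with a difference of 0.69 for Cebpa (95% interval -1.05 to 2.44, adjusted p = 0.732) and of 0.03 for Cebpb (95% interval -1.10 to 1.15, adjusted p = 0.985). Without WT LPS replicate 3 the difference was -0.17 (SE 0.19, adjusted p = 0.722) for Cebpa, with the sign turned, and -0.48 (SE 0.17, adjusted p = 0.177) for Cebpb.

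Against the whole table, 1 of 9 factors higher and 1 of 9 lower is a small count. Of all genes tested in WT, 4.31% rose and 23.3% fell with LPS, and in cGAS-/- cells 4.76% rose and 9.06% fell. The median log2 fold change over all genes was -0.46 in WT and -0.20 in cGAS-/- cells, and that of the 9 factors was -0.21 and 0.12. Relative to the median of all genes, Cebpa changed by -3.29 in WT and -2.86 in cGAS-/- cells and Cebpb by 2.22 and 1.98. By samples that did not overlap, 1 factor was higher (Cebpb) and 2 were lower (Cebpa and Tfec) with LPS in WT, where 5.31% and 32.9% of all genes did not overlap in those directions. In cGAS-/- cells 4 factors were higher (Cebpb, Klf2, Spi1 and Maf) and 3 lower (Cebpa, Mitf and Zeb2), against 15.5% and 40.2% of all genes. With TMM factors in place of the deposited scale, which brought the medians of all genes to -0.05 and 0.00, 8.04% of genes rose and 11.6% fell in WT and 7.06% rose and 6.69% fell in cGAS-/- cells, and Spi1 (0.85, adjusted p = 0.0331, in WT) and Klf2 (0.87, adjusted p = 0.0286, in WT and 1.28, adjusted p = 0.00433, in cGAS-/- cells) passed as well.

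**Figure D2:**
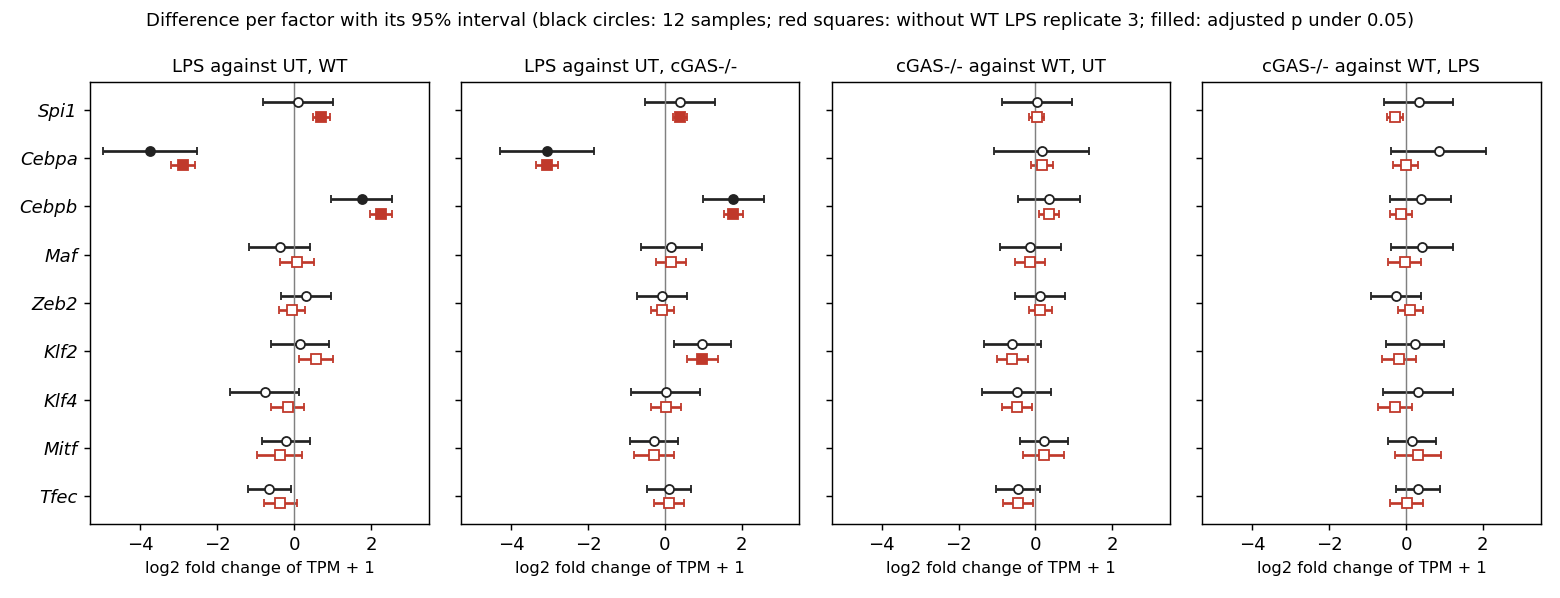
Log2 fold change of TPM + 1 for each factor (points) with its 95% interval (bars) in 4 comparisons, from all 12 samples (black circles) and without WT LPS replicate 3 (red squares); filled points have an adjusted p under 0.05. Filled black points occur for Cebpa and Cebpb with LPS, and filled red points also for Spi1 in both genotypes and Klf2 in cGAS-/- cells.

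The ratio of Cebpb to Cebpa within a sample does not depend on the scaling of that sample (this ratio was chosen after both genes were seen to move with LPS, so it is a description with no test). It was 2.13, 1.69 and 1.61 in WT UT and 2.02, 1.89 and 2.28 in cGAS-/- UT. With LPS it was 75.9, 64.7 and 307 in WT and 67.3, 53.4 and 75.2 in cGAS-/- cells. All 6 LPS samples lay far above all 6 UT samples. The log2 ratio rose by 6.00 (SE 0.72) in WT and by 4.97 (SE 0.17) in cGAS-/- cells. WT LPS replicate 3 held the highest ratio, and without it the WT difference was 5.29. Between genotypes the ratio overlapped in both conditions.

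**Figure D3:**
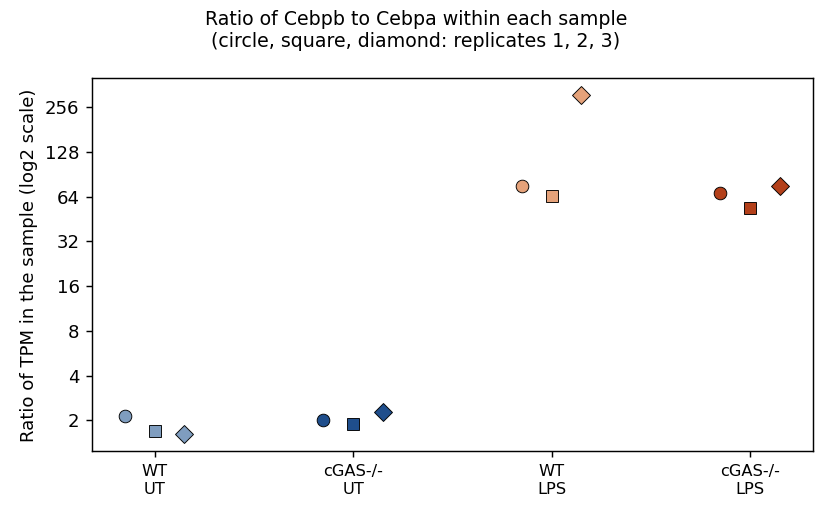
Ratio of the TPM of Cebpb to Cebpa in every sample of the 4 groups, on a log2 axis; circles, squares and diamonds are replicates 1, 2 and 3. The ratio lies between 1.61 and 2.28 without LPS and between 53.4 and 307 with LPS.

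The genes closest in pattern to each of the pair were found by the root mean square difference of centred log2 values over the 12 samples, among genes of similar spread. For Cebpa they were Cd9 (0.235), which encodes a tetraspanin, Cd300ld3 (0.304), a receptor of the CD300 family, and Mgst3 (0.334), a microsomal glutathione transferase. Cd9 stood between 265 and 323 TPM in untreated cells and between 7.38 and 32.6 TPM with LPS. For Cebpb they were the long noncoding RNA gene Gm15987 (0.258), Msr1 (0.287), the scavenger receptor A gene, and Helz2 (0.291), a nuclear receptor co-activator. Gm15987 lay between 0 and 0.121 TPM untreated and between 1.13 and 4.65 TPM with LPS, so it passed the filter through the LPS groups alone and its likeness is set by the added 1. Msr1 stood between 16.0 and 32.2 TPM untreated and between 45.1 and 158 TPM with LPS. Such likeness is a description over samples that share the LPS treatment.

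Spi1 was among the most abundant factors in all groups and its LPS result rested on WT LPS replicate 3. Its values were 144, 125 and 130 TPM in WT UT, 133, 133 and 140 TPM in cGAS-/- UT, 230, 207 and 60.7 TPM in WT LPS and 177, 173 and 188 TPM in cGAS-/- LPS. All LPS samples were above all UT samples except that one, which was below every UT sample. Over 12 samples the log2 fold change was 0.10 in WT (95% interval -0.81 to 1.01, adjusted p = 0.865) and 0.40 in cGAS-/- cells (95% interval -0.51 to 1.31, adjusted p = 0.633). Without the sample it was 0.71 in WT (SE 0.10, adjusted p = 3.77e-04) and 0.40 in cGAS-/- cells (SE 0.09, adjusted p = 0.00568), past the threshold in both. In that fit 2 factors were higher in WT (Spi1 and Cebpb) and 3 in cGAS-/- cells (Spi1, Cebpb and Klf2), with Cebpa lower in both. The background was then 8.26% of all genes higher and 26.5% lower in WT, and 9.19% and 21.6% in cGAS-/- cells.

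Maf passed no test with LPS over all 12 samples, and its WT value turned on single libraries. Maf read 84.7, 81.2 and 75.7 TPM in WT UT, 75.1, 75.1 and 70.8 TPM in cGAS-/- UT, 63.1, 113 and 32.3 TPM in WT LPS and 84.1, 84.1 and 79.9 TPM in cGAS-/- LPS. The WT LPS samples reached from below to above all others. The LPS log2 fold change of Maf was -0.38 in WT (95% interval -1.18 to 0.42, adjusted p = 0.437) and 0.17 in cGAS-/- cells (95% interval -0.63 to 0.96, adjusted p = 0.848). The WT value turned to 0.07 (adjusted p = 0.802) when WT LPS replicate 3 was left out, and to -0.82, past the threshold (adjusted p = 0.0233), when replicate 2 was left out in its place. Fitted on the 6 cGAS-/- samples alone, the 0.17 passed as well (adjusted p = 0.0229).

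Zeb2 and Mitf stayed within a narrow range in cGAS-/- cells and scattered in WT LPS. Zeb2 lay between 5.61 and 6.84 TPM in untreated samples and between 6.23 and 6.53 TPM in cGAS-/- LPS, and its WT LPS values were 4.70, 7.13 and 13.9 TPM. Mitf lay between 5.92 and 7.93 TPM in untreated samples, between 5.95 and 6.21 TPM in cGAS-/- LPS and at 2.79, 7.49 and 7.02 TPM in WT LPS. In both LPS comparisons neither gene passed the test over 12 samples, and the 95% intervals reached from -0.33 to 0.97 for Zeb2 in WT and from -0.83 to 0.41 for Mitf. The WT values in the fit without WT LPS replicate 3 were -0.06 (adjusted p = 0.79) for Zeb2 and -0.38 (adjusted p = 0.289) for Mitf. In cGAS-/- cells every LPS sample of Mitf was below every UT sample, and its -0.28 passed from the 6 samples compared alone (adjusted p = 0.0114) and with a weight per sample (adjusted p = 0.0287). Tfec, the lowest of the 9, read 1.76, 1.98 and 1.53 TPM in WT UT, 0.953, 1.19 and 0.901 TPM in cGAS-/- UT, 0.828, 1.53 and 0.171 TPM in WT LPS and 1.08, 0.871 and 1.66 TPM in cGAS-/- LPS. Its LPS log2 fold change in WT was -0.65 (95% interval -1.21 to -0.08, adjusted p = 0.0803). It was -0.36 (adjusted p = 0.179) without WT LPS replicate 3, and it passed without WT LPS replicate 2 (-0.91, adjusted p = 0.00761) and after rescaling to the protein-coding total (-0.75, adjusted p = 0.0235). The fits in which it passed called 5122 and 4241 of 11887 genes lower, in that order. Levels this near 1 TPM are compressed by the added 1.

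Klf2 was the Krüppel-like factor with the higher level. Its values were 20.9, 16.9 and 13.2 TPM in WT UT, 10.7, 10.1 and 11.4 TPM in cGAS-/- UT, 29.1, 21.8 and 10.2 TPM in WT LPS and 20.6, 20.2 and 26.2 TPM in cGAS-/- LPS. In cGAS-/- cells every LPS sample was above every UT sample, with a log2 fold change of 0.98 (SE 0.34, adjusted p = 0.0845) over 12 samples and the same 0.98 (SE 0.18, adjusted p = 0.00219) without WT LPS replicate 3. In WT the log2 fold change was 0.15 (adjusted p = 0.746), and 0.56 (adjusted p = 0.0527) without that sample. Klf4 read 3.18, 3.30 and 4.13 TPM in WT UT, 2.45, 2.07 and 2.16 TPM in cGAS-/- UT, 2.19, 4.03 and 0.164 TPM in WT LPS and 2.07, 2.18 and 2.61 TPM in cGAS-/- LPS. Its LPS differences did not pass in WT (-0.77, adjusted p = 0.174, and -0.17, adjusted p = 0.511, without WT LPS replicate 3) over 12 samples or in cGAS-/- cells (0.03, adjusted p = 0.986), and the WT value passed without WT LPS replicate 2 (-1.23, adjusted p = 0.0152).

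Loss of cGAS without LPS left no factor past the threshold, over 12 samples or without WT LPS replicate 3. Of all genes, 0.252% were higher and 1.58% lower in cGAS-/- UT than in WT UT, and 1.15% and 4.17% without that library. At an unadjusted p under 0.05 the same limma fit counted 960 of the 11887 genes and none of the 9 factors over 12 samples, and 1892 genes and 4 factors (Klf2, Cebpb, Klf4 and Tfec) without the library. By samples, Cebpb, Zeb2 and Mitf did not overlap and were higher in cGAS-/- UT, and Klf2, Klf4, Tfec and Maf did not overlap and were lower, against a background of 12.1% and 18.4% of all genes. The largest of these were Klf2 at -0.60 (95% interval -1.34 to 0.15, adjusted p = 0.878), Klf4 at -0.49 (95% interval -1.39 to 0.41, adjusted p = 1) and Tfec at -0.45 (95% interval -1.02 to 0.11, adjusted p = 0.878). These intervals use a spread shared by all 4 groups, WT LPS included. Without WT LPS replicate 3 they were -0.99 to -0.20 for Klf2 (adjusted p = 0.103), -0.88 to -0.10 for Klf4 (adjusted p = 0.18) and -0.84 to -0.07 for Tfec (adjusted p = 0.216). With a weight per sample, Klf2 (adjusted p = 0.0277) and Klf4 (adjusted p = 0.0271) passed. In the same untreated samples the summed markers of other cells also differed between genotypes, with neutrophil markers between 139 and 214 TPM in WT and between 53.3 and 126 TPM in cGAS-/- cells, and stromal markers between 7.54 and 9.72 TPM and between 2.33 and 4.30 TPM. Their part in the factor values was not tested.

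With LPS no factor passed the test between genotypes over 12 samples or without WT LPS replicate 3, and Maf passed without WT LPS replicate 2 (0.86, adjusted p = 0.0325), a fit in which 2839 of the 11887 genes passed as higher and 473 as lower. All 9 overlapped between WT LPS and cGAS-/- LPS, where 12.6% of all genes were higher and 5.17% lower without overlap. The background of calls was 1.36% of genes higher and 1.00% lower in cGAS-/- cells over 12 samples, and 3.84% and 4.44% without WT LPS replicate 3. The intervals were wide over 12 samples, such as -0.38 to 2.09 for Cebpa, and narrower without that sample, where the estimates ran from -0.29 (Klf4) to 0.32 (Mitf). At an unadjusted p under 0.05 limma counted 2229 genes and no factor over 12 samples, and 2713 genes and 1 factor, Spi1, without it. Over 12 samples none of the 9 passed as an LPS effect that differed between genotypes, where 0.732% of genes passed as higher and 0.168% as lower. Without WT LPS replicate 3 none passed either, against 2.92% and 1.64%. Tfec passed without WT LPS replicate 2 (1.03, adjusted p = 0.0499), a fit that called 1351 of the 11887 genes higher and 145 lower. The counts at an unadjusted p under 0.05 were 1316 genes and no factor over 12 samples, and 2029 genes and 2 factors (Cebpb and Spi1) without WT LPS replicate 3.

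Genes linked to each factor in general knowledge were then counted, for the comparison of LPS with untreated cells. Of the 18 tested C/EBP targets, 16 rose and 2 fell in WT, and 15 rose and none fell in cGAS-/- cells, with median log2 fold changes of 3.74 and 5.31 against -0.46 and -0.20 over all genes. The counts were the same without WT LPS replicate 3. Il6, Nos2, Csf3 and Ptges averaged at most 0.37 TPM in untreated cells, so they met the filter through the LPS groups. Their counted rise is a description, and C/EBP activity was not tested. The shares of all genes that rose and fell were 4.31% and 23.3% in WT and 4.76% and 9.06% in cGAS-/- cells, and 8.26%, 26.5%, 9.19% and 21.6% without that sample. Ccl5, a chemokine gene, changed by 8.36 in WT (8.74 without that sample) and 8.24 in cGAS-/- cells, and Saa3, an acute-phase gene, by 7.80 (8.75 without it) and 9.04. The genes that fell in WT were Chil3 (-2.24, and -1.95 without it) and Elane (-0.68 and -0.57), which was under 1 TPM. Elane averaged 0.854 TPM in WT UT and at most 0.182 TPM in the other groups. It thus met the filter through WT UT, and its fall is a description. Between genotypes with LPS, 4 of these targets were higher in cGAS-/- cells and 1 lower, against 1.36% and 1.00% of all genes. The counts were 6 and 4 without WT LPS replicate 3, against 3.84% and 4.44%, and from the 6 LPS samples alone none passed in either direction. Over 12 samples Il1b (3.11, adjusted p = 0.00907) and Il6 (3.09, adjusted p = 4.24e-06), both cytokine genes, and Ptgs2 (2.84, adjusted p = 0.023), which encodes an enzyme of prostaglandin synthesis, led those that were higher, and without WT LPS replicate 3 they stood at 2.57, 2.99 and 2.01. Il6 averaged 0.801 ± 0.256 TPM in WT LPS and 14.3 ± 1.58 TPM in cGAS-/- LPS (SD, n = 3). In untreated cells it averaged 0.0947 TPM in WT and 0.0562 TPM in cGAS-/- cells, so the filter on low values was met through cGAS-/- LPS and its call there is a description.

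PU.1 targets moved both ways. Of 20 tested, Spi1 itself included, 4 rose and 2 fell in WT and 7 rose and 4 fell in cGAS-/- cells, and without WT LPS replicate 3 the counts were 9 and 5, and 11 and 7. Over 12 samples, 4.31% of all genes rose and 23.3% fell in WT and 4.76% rose and 9.06% fell in cGAS-/- cells, and 8.26%, 26.5%, 9.19% and 21.6% did without that sample. Fcgr1, the high-affinity IgG receptor gene, rose by 2.48 in WT (3.06 without that sample) and 2.13 in cGAS-/- cells. Itgax, the CD11c gene, fell by 2.17 in WT (-1.95 without it), and Cd68, a lysosomal glycoprotein gene, fell by 2.12 in cGAS-/- cells. Lyz2, the macrophage lysozyme gene, was higher in cGAS-/- LPS than in WT LPS (0.80, adjusted p = 0.0366, and 1.04 without WT LPS replicate 3), a call that was lost with TMM factors (0.40, adjusted p = 0.594). Ctss, a lysosomal protease gene, was lower (-0.77, adjusted p = 0.0229, and -0.81 without that sample). From the 6 LPS samples alone neither gene passed.

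Calls among genes linked to MAF were mostly lower, as were those of all genes. Of 13 tested, 1 rose and 7 fell in WT, against 4.31% and 23.3% of all genes. In cGAS-/- cells none rose and 3 fell, against 4.76% and 9.06%. Leaving out WT LPS replicate 3 gave 1 and 9 in WT, against 8.26% and 26.5% of all genes, and 2 and 9 in cGAS-/- cells, against 9.19% and 21.6%. Gas6, the ligand of TAM receptors, fell by 3.45 in WT (-2.95 without that sample) and fell by 3.63 in cGAS-/- cells. Mrc1, the mannose receptor gene, fell by 3.41 in WT (-3.72 without it) and fell by 3.72 in cGAS-/- cells. Mrc1 also differed between genotypes, at 80.9 ± 6.58 TPM in WT UT and 24.5 ± 1.06 in cGAS-/- UT, and at 7.20 ± 3.51 TPM in WT LPS and 0.938 ± 0.137 in cGAS-/- LPS (SD, n = 3). Its log2 fold change was -1.68 untreated (adjusted p = 0.0121) and -1.99 with LPS (adjusted p = 0.00582, and -1.68 without WT LPS replicate 3), and the untreated call was lost with TMM factors (adjusted p = 0.111). C1qa, a complement subunit gene, was lower in cGAS-/- LPS (-1.47, adjusted p = 0.0486, and -1.97 without that sample), and F13a1, a clotting factor gene, was lower in cGAS-/- UT (-1.25, adjusted p = 0.0226). From the 6 LPS samples alone no gene of the list passed between genotypes, so the calls of Mrc1 and C1qa with LPS were lost.

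**Figure D4:**
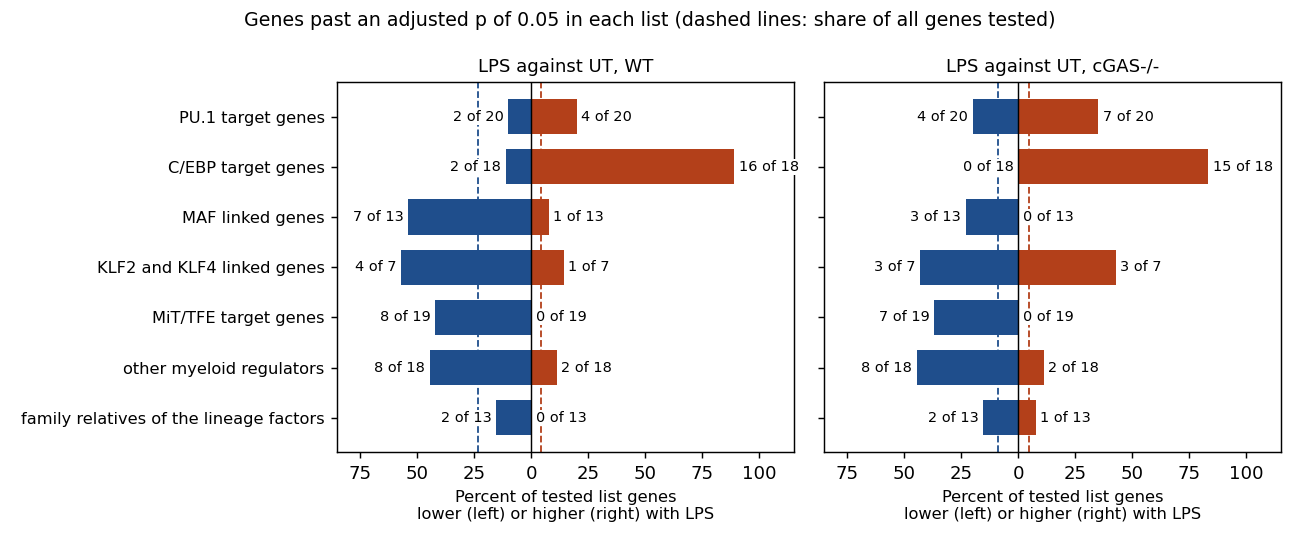
Percent of the tested genes of each list that were lower (left, blue) or higher (right, red) with LPS at an adjusted p under 0.05 in WT and in cGAS-/- cells over 12 samples, with counts beside the bars; dashed lines give the share of all genes tested. C/EBP targets are mostly higher (16 of 18 and 15 of 18), and MiT/TFE targets are either lower (8 of 19 and 7 of 19) or not past the threshold. The C/EBP counts include Il6, Nos2, Csf3 and Ptges, which met the filter on low values through the LPS groups.

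MiT/TFE targets, the lysosomal and osteoclast genes, were mostly lower or not past the threshold with LPS. Of 19 tested, none rose and 8 fell in WT over 12 samples on the deposited scale, against 4.31% and 23.3% of all genes. In cGAS-/- cells none rose and 7 fell, against 4.76% and 9.06%. The medians were -1.25 in WT (-0.66 without WT LPS replicate 3 and -0.49 with TMM factors) and -1.04 in cGAS-/- cells. Without WT LPS replicate 3 the counts were 1 higher and 13 lower in each genotype. The shares of all genes were then 8.26% and 26.5% in WT and 9.19% and 21.6% in cGAS-/- cells. With TMM factors none rose and 5 fell in WT, against 8.04% and 11.6%. In cGAS-/- cells 1 rose and 8 fell with TMM factors, against 7.06% and 6.69%, and 1 rose and 16 fell with weights, against 13.2% and 35.1%. Atp6v0d2, a subunit of the proton pump that osteoclasts also use, fell from 145 ± 5.01 to 2.91 ± 1.88 TPM in WT and from 78.7 ± 5.84 to 0.934 ± 0.0857 TPM in cGAS-/- cells (SD, n = 3). Gpnmb, a glycoprotein gene of lysosomes, fell from 1741 ± 38.0 to 419 ± 338 TPM and from 1950 ± 25.4 to 248 ± 1.83 TPM. The osteoclast markers, which share Atp6v0d2, summed to between 190 and 200 TPM in WT UT and between 90.3 and 101 TPM in cGAS-/- UT. With LPS the sums were 4.77 to 44.1 TPM in WT and 60.6 to 63.9 TPM in cGAS-/- cells. Calcr, Ocstamp and Oscar stayed under 1 TPM in every sample and Itgb3 reached at most 1.98 TPM. In WT UT Ctsk lay between 36 and 37.4 TPM and Acp5 between 7.89 and 9.17 TPM. Mmp9 lay between 47.6 and 51.8 TPM in cGAS-/- LPS and reached at most 4.18 TPM in the other groups.

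KLF2 and KLF4 linked genes were few. Of 7 tested, 1 rose and 4 fell in WT and 3 rose and 3 fell in cGAS-/- cells, and without WT LPS replicate 3 the counts were 2 and 3, and 3 and 3. The shares of all genes were 4.31% and 23.3% in WT and 4.76% and 9.06% in cGAS-/- cells over 12 samples, and 8.26% and 26.5%, and 9.19% and 21.6%, without that sample. Hif1a, the gene of a hypoxia-inducible factor subunit, rose by 1.41 in WT (1.34 without that sample) and by 2.23 in cGAS-/- cells. Cdkn1c, the gene of a cyclin-dependent kinase inhibitor, fell by 2.51 in WT (-2.49 without it) and fell by 2.30 in cGAS-/- cells. It averaged 0.0306 TPM in WT LPS and 0.0129 TPM in cGAS-/- LPS. Cdkn1c thus met the filter through the untreated groups, and its fall is a description. S1pr1, a sphingosine phosphate receptor gene, fell by 2.39 in WT (-2.01 without WT LPS replicate 3) and fell by 2.18 in cGAS-/- cells. Cav1, the caveolin gene, was higher in cGAS-/- LPS than in WT LPS (1.27, adjusted p = 0.00735, and 1.11 without that sample) and its LPS effect differed between genotypes (1.41, adjusted p = 0.0438, and 1.26 without it). The first of these calls was lost from the 6 LPS samples alone.

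Of the family relatives of the 9 factors, 13 were tested, of which none rose and 2 fell in WT and 1 rose and 2 fell in cGAS-/- cells, and without WT LPS replicate 3 the counts were 2 and 4, and 3 and 4. Over 12 samples these counts stand against 4.31% and 23.3% of all genes in WT and 4.76% and 9.06% in cGAS-/- cells, and without that sample against 8.26% and 26.5%, and 9.19% and 21.6%. With TMM factors the WT counts turned to 3 higher and none lower, against 8.04% and 11.6% of all genes in that fit. Klf13 fell by 0.89 in WT (-0.68 without WT LPS replicate 3, and lost with TMM factors at -0.26, adjusted p = 0.304) and fell by 0.88 in cGAS-/- cells, and Klf7 rose by 1.79 in cGAS-/- cells. Among 18 other myeloid regulators, 2 rose and 8 fell in each genotype over 12 samples. The shares of all genes were 4.31% and 23.3% in WT and 4.76% and 9.06% in cGAS-/- cells. Leaving out WT LPS replicate 3 gave 4 and 10 in WT and 3 and 12 in cGAS-/- cells, against 8.26% and 26.5%, and 9.19% and 21.6%, of all genes. Pparg, the nuclear receptor of lipid handling, fell by 2.68 in WT (-2.42 without that sample) and fell by 3.23 in cGAS-/- cells. It averaged 0.535 TPM in WT LPS and 0.262 TPM in cGAS-/- LPS. Pparg thus met the filter through the untreated groups, and its fall is a description. Id3 and Id1, inhibitors of helix-loop-helix factors, were the regulators that passed between untreated genotypes over 12 samples, and both were higher in cGAS-/- UT. Id3 averaged 1.31 ± 0.428 TPM in WT UT and 46.1 ± 1.16 in cGAS-/- UT, then 1.28 ± 0.915 TPM in WT LPS and 2.29 ± 0.314 in cGAS-/- LPS (SD, n = 3). Its log2 fold change between genotypes untreated was 4.37 (SE 0.27, adjusted p = 1.67e-05) and that of Id1 was 3.38 (SE 0.32, adjusted p = 2.80e-04). Id1 averaged 12.6 TPM in cGAS-/- UT and under 1 TPM in the other groups, so it met the filter through the group where it is high and its call is a description. Id2, of the same family, averaged 28.8 ± 1.8 TPM in WT UT and 118 ± 3.46 TPM in cGAS-/- UT (SD, n = 3), and its 1.99 passed without WT LPS replicate 3 (adjusted p = 1.28e-05) and with TMM factors (2.02, adjusted p = 0.00412) but not over 12 samples (adjusted p = 0.0646). Between LPS genotypes no regulator passed over 12 samples. In the fit without WT LPS replicate 3, Id3 was higher in cGAS-/- LPS (0.90) and Id2 (-1.07), Nr1h3 (-0.68), Pparg (-0.50), Irf8 (-0.46) and Irf5 (-0.44) were lower, against 3.84% of all genes higher and 4.44% lower. Id2 and the genes Nr1h3, Irf8 and Irf5 were named after their values were seen.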

How the data were processed

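RNA of 12 macrophage samples was sequenced after a stranded library preparation. The authors mapped reads to GRCm39 with STAR and counted them with Kallisto on Galaxy, and fastp is listed among the tools. The unit of the deposited values was inferred from the numbers, as the mean TPM of a symbol's transcripts. Read numbers are unknown, so no counting interval is given. The table covers chromosomes 1 to 12 and part of 13.

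Values were tested with limma 3.58.1 (R 4.3.3; lmFit, eBayes with trend, 1 mean per group, all 12 samples) on log2(TPM + 1). Genes needed 1 TPM, after each sample was rescaled to a common total, in 3 samples. A call was a Benjamini-Hochberg adjusted p under 0.05, and the fit was tested on simulated data, where it found most added changes. Where the simulated samples kept each group's own spread, most genes called in the comparisons with WT LPS were false. The simulation added changes to few genes, and none that differed between genotypes. That false share therefore depends on its setting and does not carry over to the calls in these data. Fold changes of genes near 1 TPM are understated on this scale. Fits without 1 sample, and with other pseudocounts, filters, scalings, weights or a replicate block, were alternatives.

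The factors and lists were chosen with earlier results of these data known, and some related genes are not reported here. All factors, at most 3 called genes with the largest change per list and comparison, the genes of most like pattern, and overlapping or marker genes at or near 0 were named.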

Additional observations from a re-analysis of the deposited data

How the results depend on the processing

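Cebpa with LPS kept its direction and passed in all alternatives run, between -4.23 and -2.89 in WT and between -3.33 and -2.66 in cGAS-/- cells. Cebpb lay between 1.5 and 2.51 in WT and between 1.49 and 2.10 in cGAS-/- cells, and missed the threshold once, in WT. The number of factors past the threshold moved in some fits. It was 2 instead of 0 between untreated genotypes with a weight per sample, a fit that called 3.49% of all genes higher and 8.03% lower. For LPS in WT it was 4 instead of 2 with TMM factors, against 8.04% of all genes higher and 11.6% lower. From the 6 WT samples alone it was 1, against 1.4% and 4.62%. For LPS in cGAS-/- cells it was 6 instead of 2 from the 6 cGAS-/- samples alone, against 12.7% and 32%. With weights it was 5 there, against 13.2% and 35.1%. It was 3 with LPS in WT after rescaling to the protein-coding total (Tfec added), a fit that called 496 of 11887 genes higher and 4241 lower. With LPS in cGAS-/- cells it was 3 with TMM factors, quantile normalization or that rescaling (Klf2 added). Those fits called 839, 814 and 517 of 11887 genes higher and 795, 985 and 2098 lower. The cause was not tested. When each sample was left out in turn, the number ran from 0 to 1 between LPS genotypes, from 2 to 5 with LPS in WT, from 2 to 4 with LPS in cGAS-/- cells and from 0 to 1 for the difference of LPS effects. WT LPS replicate 2 set the values of 1 (Maf between genotypes, 0.86, and Tfec for the difference, 1.03) and the 5 (Maf, Klf4 and Tfec added, in a fit that called 663 of 11887 genes higher and 5122 lower with LPS in WT and 1351 higher and 145 lower for the difference), and WT LPS replicate 3 set the 4. Without WT LPS replicate 1, Klf2 passed in cGAS-/- cells (adjusted p = 0.0427). Over all genes, the calls ranged from 92 to 1369 against 218 between untreated genotypes, from 5 to 3312 against 281 between LPS genotypes, from 716 to 5785 against 3286 with LPS in WT, from 1020 to 5746 against 1643 in cGAS-/- cells and from 32 to 1496 against 107 for the difference. The fit on the samples compared was not run for the difference, which needs all groups.

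Signs turned only for factors that did not pass in the main comparison. With TMM factors, the genotype difference with LPS was -0.07 for Spi1, -0.02 for Cebpb, -0.15 for Klf2 and -0.20 for Mitf. The LPS effect was then 0.36 for Maf and 0.44 for Mitf in WT and 0.21 for Zeb2 and 0.00 for Mitf in cGAS-/- cells, and the difference of LPS effects was -0.13 for Spi1 and -0.41 for Cebpb. With weights, the genotype difference with LPS was -0.19 for Spi1, -0.03 for Cebpb, 0.13 for Zeb2, -0.17 for Klf2 and -0.06 for Klf4, the LPS effect in WT was -0.07 for Zeb2, and the difference was -0.23 for Spi1, -0.40 for Cebpb and 0.26 for Mitf. Quantile normalization gave -0.11 for Mitf between LPS genotypes, 0.28 for Mitf in WT, 0.11 for Zeb2 in cGAS-/- cells and -0.05 for Cebpb in the difference. Rescaling to the protein-coding total, added after the data were seen, gave -0.05 for Mitf between LPS genotypes, -0.12 for Maf, -0.18 for Klf4 and -0.04 for Tfec with LPS in cGAS-/- cells and -0.23 for Cebpb in the difference.

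Leaving out 1 sample turned further signs. Between untreated genotypes Spi1 ran from -0.01 to 0.09. Between LPS genotypes the ranges were -0.28 to 0.67 for Spi1, -0.03 to 0.86 for Maf, -0.01 to 1.34 for Cebpa, -0.12 to 0.64 for Cebpb, -0.58 to 0.11 for Zeb2, -0.18 to 0.54 for Klf2, -0.29 to 0.77 for Klf4 and -0.22 to 0.36 for Mitf. With LPS in WT they were -0.24 to 0.71 for Spi1, -0.82 to 0.07 for Maf, -0.06 to 0.63 for Zeb2, -0.15 to 0.56 for Klf2 and -0.42 to 0.16 for Mitf. With LPS in cGAS-/- cells Klf4 ran from -0.04 to 0.07 and Tfec from -0.03 to 0.23. For the difference the ranges were -0.31 to 0.64 for Spi1, -0.17 to 1.17 for Cebpa, -0.48 to 0.28 for Cebpb and -0.44 to 0.14 for Mitf.

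Samples of the same replicate number did not deviate together (correlations of their deviations from the group means between -0.0315 and 0.0383), so the numbers do not pair them. With a replicate block, 2 factors passed with LPS in each genotype and 0 in the other comparisons, as without it. Depth is unknown, so how much counting error adds at low levels such as those of Tfec and Klf4 cannot be given.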
